A study of Rattus norvegicus with 4 samples.

Results

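A set of 10 genes that are used to describe pluripotency and the germline was read from RNA-seq libraries of rat embryonic stem cells (ESCs) in which *Thop1*, a zinc metallopeptidase gene, had been targeted. They are *Dppa2*, *Dppa3*, *Dppa4*, *Dppa5*, *Utf1*, *Tdgf1*, *Fbxo15*, *Dazl*, *Ddx4* and *Lin28a*, and they were found by an exact match of the gene name in the deposited count table. Of the 10 names, 9 had a row. *Dppa2* had no row under that name and is not analysed here. *Dppa3* had 2 rows, so 10 of the 34773 rows of the table are described, and all 10 were among the 15028 that passed a filter on low counts.

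The control, labelled WT, was 1 library of DA-5-3GFP, a derivative of the line DA-5-3 that carries a *Rex1*-GFP reporter. *Thop1*-KO had 3 libraries, 1 from each of the subclones #1, #2 and #3, which were picked after transfection of DA-5-3GFP with Cas9 and sgRNA vectors and puromycin selection, so each is a single clone and carries the same reporter. Rat ESCs were grown in 2i/LIF medium over a feeder layer. The parent line is diploid by the methods, whereas the deposited design text calls both genotypes haploid.

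The Dppa genes were named for developmental pluripotency association, that is, for a pattern of expression shared with *Oct4*. *Dppa2* and *Dppa4* encode chromatin proteins with a SAP domain, *Dppa3* (also called *Stella*) encodes a protein that protects methylation in the early embryo, and *Dppa5* encodes an RNA-binding protein. *Utf1*, *Tdgf1*, *Fbxo15* and *Lin28a* are markers of undifferentiated cells that act in chromatin, Nodal signalling, protein degradation and microRNA processing, while *Dazl* and *Ddx4* encode RNA-binding proteins of germ cells.

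The members did not move together. *Dppa4* rose in *Thop1*-KO, by a log2 fold change of 1.13, and *Utf1*, *Dppa5* and *Dazl* fell, by 1.51, 1.02 and 3.64 on the log2 scale. In these bulk samples, fewer cells that express a gene and less of its RNA per cell cannot be told apart. *Dppa3* from its chromosome 4 gene was higher in every subclone than in the control, with a log2 fold change of 1.12, but did not pass the test, and *Tdgf1* lay within the range of the subclones. Thus 4 of the 10 rows (40%) passed an adjusted p-value threshold of 0.05 and are called here, beside 13.8% of all genes tested. Of the members 1 was higher, beside 8.62% of all genes, and 3 were lower, beside 5.17%. *Dazl* is among the 3 and passed the filter on low counts only through the control, where it is high, so it had to differ and the shares are a description only. With at least 10 counts required in every library, 3 of 9 rows were called. The control lay outside the range of the 3 subclones in 9 members, above all of them in 7 and below all of them in 2, beside 75.7% of all genes tested. The median log2 fold change was -0.71 over the members and 0.06 over all genes tested.

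Library totals ran from 15405499 to 17936544 counts. *Thop1* was at 92.5 to 149 CPM in the subclones and 370 in the control. CPM are counts scaled to library size after TMM normalization, and levels between genes are given as the deposited FPKM, which are scaled per length. Each subclone and the control had 1 library, so p-values measure only the spread between the 3 subclones, and a difference between the genotypes, between the cultures and between the library preparations cannot be told apart. Permuting 1 library against 3 exactly gives no one-sided p-value below 0.25, so the calls rest on edgeR's quasi-likelihood model. Differences also moved with gene length. The median log2 fold change was -0.57 over the 1051 tested genes of up to 500 bases and -0.44 over the 1748 of more than 500 and up to 1000 bases, and it was 0.39 over the 2659 of more than 4000 bases. Values after a correction of each library for gene length, chosen after seeing the data, are therefore given beside each member. Without subclone #3, edgeR called 2.78% of all genes and 0 of the 10 members, and 5 members then had an unadjusted p-value under 0.05. In the edgeR fit of all libraries, 5 members and 34% of all genes tested were under this unadjusted threshold. All libraries are labelled embryonic stem cells, and 6 of 7 ESC marker names had a row, *Zfp42* having none. Their summed level was 5363 to 6478 CPM in the subclones and 5682 in the control. Most of it was *Pou5f1*, at 3889 to 4842 CPM in the subclones and 4794 in the control, so the sum says little about the others. Of the 6 tested, edgeR called 2 higher (33.3%, beside 13.8% of all genes), *Esrrb* (4.30) and *Tfcp2l1* (2.89 on the log2 scale). *Pou5f1* (-0.09), *Nanog* (-0.21), *Klf4* (-0.33) and *Sox2* (0.83) were not called. The control lay within the range of the subclones for *Pou5f1*, *Nanog* and *Klf4* and below it for *Sox2*. Of 8 fibroblast names 7 had a row, and *Thy1*, *Dcn* and *Lum* had no count in any library. The 4 tested, *Col1a1*, *Col3a1*, *Pdgfrb* and *Postn*, were above the control in every subclone, with a median log2 fold change of 1.33. *Postn*, with 6, 18 and 8 counts against 3, passed the filter on low counts only through #2, so it had to differ. The fibroblast genes summed to 322 to 643 CPM in the subclones and 199 in the control, edgeR called 0 of the 4 tested (2 at an unadjusted p-value under 0.05), and their part in the results below was not tested.

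Sequence upstream is shown for *Utf1*, which had the largest fall in FPKM, and for the germline genes *Dazl* and *Ddx4*. RefSeq's rat build GRCr8 gave a promoter for 8 of the 10 names. Its windows hold 300 bases, of which 250 lie before the start, and the median of all 33469 promoters was 7 CpG per window. *Utf1* had 22 CpG and *Dazl* 31, and at least as many were found in 21.0% and 9.31% of all promoters. *Dppa5* had 2, and 86.4% of promoters have as many, so the CpG number differed between *Utf1* and *Dppa5*. The RefSeq gene of *Dppa5* spans 2310 bases and the deposited one 853, so its start may differ between both. The 250 bases before *Utf1* (chr1:204169704-204169953, plus strand, 16 CpG) and *Dazl* (chr9:18193113-18193362, plus strand, 23 CpG) are shown with each CpG in capitals.
Utf1: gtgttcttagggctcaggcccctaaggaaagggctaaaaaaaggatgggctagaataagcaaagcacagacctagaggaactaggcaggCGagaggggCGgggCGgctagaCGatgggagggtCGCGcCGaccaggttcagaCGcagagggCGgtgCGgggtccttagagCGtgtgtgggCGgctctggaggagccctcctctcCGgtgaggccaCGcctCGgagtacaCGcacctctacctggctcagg
Dazl: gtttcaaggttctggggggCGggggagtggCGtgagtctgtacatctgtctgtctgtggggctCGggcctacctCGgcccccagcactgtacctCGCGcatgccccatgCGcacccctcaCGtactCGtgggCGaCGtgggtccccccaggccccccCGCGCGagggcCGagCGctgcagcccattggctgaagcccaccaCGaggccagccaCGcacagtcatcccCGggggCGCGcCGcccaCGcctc

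*Ddx4*, which did not pass the test, had 32 CpG, and 8.38% of promoters have as many. It was the only one of the 8 windows with CACGTG, the E-box read by MAX and MGA, or with GCGGGAA, the letters of an E2F6 site. Both strands were searched. CACGTG is its own reverse complement, and it stands in 6.42% of all promoters, GCGGGAA in 4.21%. No member window held ATGCAAAT, an octamer (1.78% of promoters), or TCAAGGTCA, an ESRRB site (0.433%). The 30-base stretches of *Ddx4* around both matches lie 80 and 187 bases before the start, at chr2:46016014-46016043 and chr2:46016120-46016149 of GRCr8 on the minus strand, with the motif in capitals.
Ddx4 CACGTG: tcccggcgtccgCACGTGcagccgtttaag
Ddx4 GCGGGAA: ccgtccatgggGCGGGAAgccgcgcgctga

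**Figure D1:**
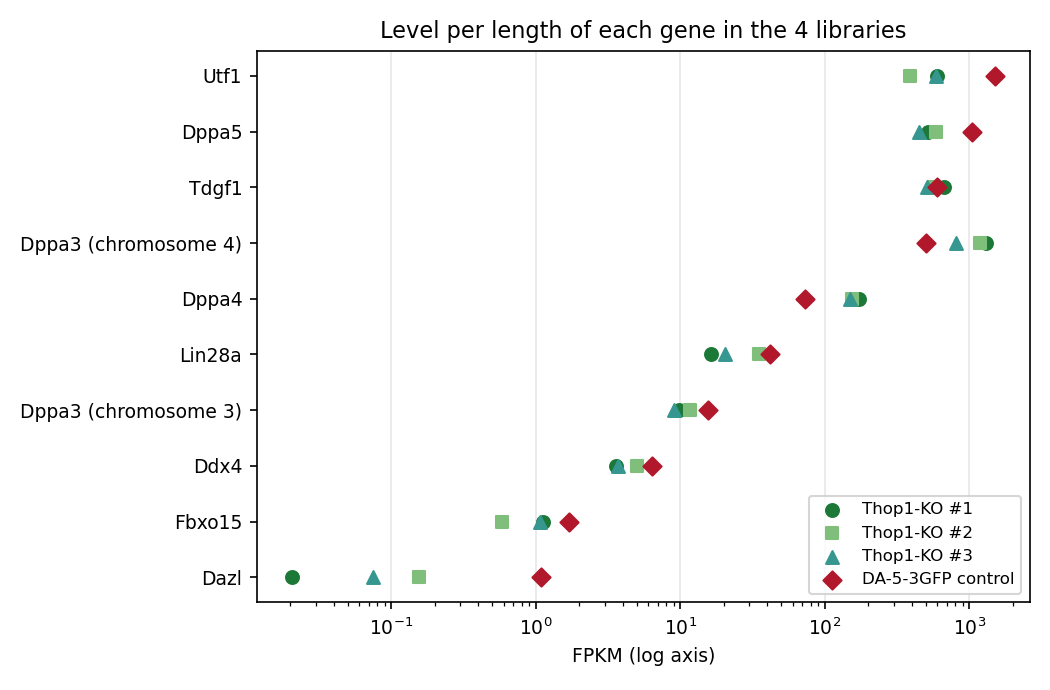
Deposited FPKM (log axis) of the 10 member rows in each of the 4 libraries, with the subclones in green and the control as red diamonds. The control lies to the right of all 3 subclones in 7 rows, to the left of them for *Dppa3* of chromosome 4 and *Dppa4*, and among them for *Tdgf1*.

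*Dppa3* was the highest member by FPKM in every subclone and the fourth in the control. Its main gene is ENSRNOG00000022950 (chromosome 4, 155437675 to 155440828 of the deposited annotation, plus strand). It had 10522 (#1), 10220 (#2), 7101 (#3) and, in the control, 3636 counts, or 627, 578, 395 and 245 CPM. All 3 subclones lay above the control, and #3 was the nearest to it. The level was 1103 ± 262 FPKM (SD, n = 3) in *Thop1*-KO and 506 in the control. The log2 fold change was 1.12 with a standard error of 0.32, and the edgeR adjusted p-value of 0.0623 missed the threshold. Over the alternatives that adjusted p-value ran from 0.00800 to 0.175, and it was 0.0131 by DESeq2, 0.0292 after the correction for gene length and 0.00800 without #2, where 37.1% of all genes were called. The gene overlaps LOC100909595 on the opposite strand, which had 86 to 504 counts against 161, and whether reads were counted by strand is not given in the sources used here.

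The other *Dppa3* row (ENSRNOG00000031161, chromosome 3, 111298713 to 111299189, plus strand) covers 477 bases. Its exon length equals its span, so it has no intron, and it is as long as the exons of the chromosome 4 gene, so reads between both genes may be split. Its counts were 79, 100 and 80 against 112, with a log2 fold change of -0.61 (edgeR adjusted p = 0.303), and -0.17 after the correction for gene length (adjusted p = 0.788). It took 0.745% (95% Wilson interval 0.598 to 0.928), 0.969% (0.797 to 1.18) and 1.11% (0.896 to 1.38) of all *Dppa3* counts in #1, #2 and #3, and 2.99% (2.49 to 3.58) in the control. The interval of the control lay above those of the subclones. These intervals cover counting error only. With the counts of both rows summed, a choice made after seeing the data, *Dppa3* had a log2 fold change of 1.09 (edgeR adjusted p = 0.0657).

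DPPA3 holds UHRF1, the protein that guides DNMT1 to replicated DNA, away from chromatin. The maintenance of imprints also uses ZFP57 and TRIM28. *Tet3*, whose product oxidises methylated cytosine, was listed with them. Of these 5 genes edgeR called 3 higher and 0 lower, beside 8.62% and 5.17% of all genes, with a median log2 fold change of 1.28. *Uhrf1* was at 917 (#1), 852 (#2) and 838 (#3) CPM against 331, a log2 fold change of 1.39 (edgeR adjusted p = 0.0148). *Zfp57* was at 35.1, 30.8 and 24.3 CPM against 4.04, a log2 fold change of 2.89 (edgeR adjusted p = 0.0112). *Tet3* had a log2 fold change of 1.28 (edgeR adjusted p = 0.0393), and 0.87 after the correction for gene length (adjusted p = 0.0907). *Dnmt1* and *Trim28* had log2 fold changes of -0.13 and -0.25.

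*Dppa4* was the called member that varied least. Its gene is ENSRNOG00000025404 (chromosome 11, 55234545 to 55240241, minus strand). Counts of 2503 (#1), 2366 (#2) and 2358 (#3) stood against 939, or 149, 134 and 131 CPM against 63.2. The subclones lay close together, all above the control, and their coefficient of variation was 7.05%, beside a median of 23.4% over all genes tested. The level was 159 ± 12.5 FPKM (SD, n = 3) against 72.9. edgeR put the rise at 1.13 on the log2 scale with a standard error of 0.25 (edgeR adjusted p = 0.0348), and 1.36 after the correction for gene length (adjusted p = 0.0253). Without #1 it was 1.05 at an adjusted p of 0.0569, and over all alternatives the adjusted p ran from 0.00227 to 0.148.

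*Utf1*, which encodes a chromatin-bound protein that limits Polycomb at developmental genes, had the largest fall in FPKM among the members. Its gene is ENSRNOG00000050207 (chromosome 1, 212281237 to 212282363, plus strand). It had 10436 (#1), 7154 (#2), 11253 (#3) and, in the control, 23275 counts, or 622, 405, 626 and 1566 CPM. The subclones stood at 39.7%, 25.8% and 40.0% of the control, and #2 was the lowest. The level was 527 ± 120 FPKM (SD, n = 3) against 1500, and in the control *Utf1* was the highest of the members. edgeR gave a log2 fold change of -1.51 with a standard error of 0.27 (edgeR adjusted p = 0.0206), -1.35 after the correction for gene length (adjusted p = 0.0296), and -1.62 to -1.33 with 1 subclone left out. The adjusted p ran from 0.000168 to 0.107 over the alternatives.

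*Dppa5*, whose product has a KH domain that binds RNA, was also lower in every subclone. Its gene, ENSRNOG00000000199 (chromosome 8, 85711795 to 85712647, minus strand), has 354 bases of exon. Counts were 3101 (#1), 3750 (#2) and 2947 (#3) against 5622, or 185, 212 and 164 CPM against 378. The groups did not overlap. The level was 521 ± 70.1 FPKM (SD, n = 3) against 1054. *Dppa5* fell by 1.02 on the log2 scale with a standard error of 0.23 (edgeR adjusted p = 0.0360). After the correction for gene length the log2 fold change was -0.56 and the edgeR adjusted p 0.148, which ends the call. Over all alternatives the adjusted p ran from 0.000983 to 0.172.

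*Ooep*, another KH-domain gene of the oocyte and early embryo, is the nearest gene above *Dppa5*, 6849 bases away on the same strand. It was at 65.0, 95.8 and 49.9 CPM against 180, a log2 fold change of -1.36 (edgeR adjusted p = 0.0498), and -1.10 after the correction for gene length (adjusted p = 0.0882). *Khdc3*, of the same family of KH genes, had 31, 13 and 11 counts against 90 and a log2 fold change of -2.50 (edgeR adjusted p = 0.0530).

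*Tdgf1*, which encodes CRIPTO, the membrane co-receptor of NODAL, did not pass the test in any of the 14 alternatives. Its gene is ENSRNOG00000037171 (chromosome 8, 119215495 to 119219232, minus strand). It was at 339 (#1), 291 (#2) and 264 (#3) CPM against 302, and the control thus lay between #1 and #2. The level was 587 ± 80.2 FPKM (SD, n = 3) against 596. Its estimated log2 difference was -0.02 with a standard error of 0.24 (edgeR adjusted p = 0.960), and the sign was positive without #3, without a filter, by library size only and after the correction for gene length (0.41).

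Of 16 other names of the Nodal pathway 14 were tested, and edgeR called 2 higher and 0 lower. This is 14.3% of the list, near the 13.8% of all genes, with a median log2 fold change of 0.37. *Acvr1b*, a type I receptor, was at 66.0, 52.6 and 67.3 CPM against 25.5, a log2 fold change of 1.28 (edgeR adjusted p = 0.0383), which was 0.92 at an adjusted p of 0.0975 after the correction for gene length. *Smad4*, the shared transducer, was at 18.3, 20.9 and 22.2 CPM against 5.99, a log2 fold change of 1.77 (edgeR adjusted p = 0.0278). The ligand *Nodal* lay at 225, 143 and 193 CPM against 188, with a log2 fold change of -0.01. The target *Lefty1* was at 590, 997 and 914 CPM against 667, so #1 lay below the control and #2 and #3 above it.

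*Fbxo15*, the F-box gene whose locus marks reprogrammed cells, was near the lower end of detection. Its gene is ENSRNOG00000038225 (chromosome 18, 81821127 to 81882796, plus strand). It had 29 (#1), 16 (#2) and 30 (#3) counts against 39, or 1.12, 0.585 and 1.06 FPKM against 1.69. The control was highest, but the log2 fold change of -0.87 had a standard error of 0.62 (edgeR adjusted p = 0.354), so a difference was not detectable at this depth. Of the SCF ligase core to which F-box proteins bind, *Skp1*, *Cul1* and *Rbx1* were tested and edgeR called 0 of them. An unadjusted p-value under 0.05 was found for 2 of them, beside 34% of all genes. Their log2 fold changes were -0.92, -1.19 and -0.37, with all subclones below the control. DESeq2, which called 21.5% of the genes it tested, called *Skp1* (adjusted p = 0.0404) and *Cul1* (adjusted p = 0.0428). *Cul1* also passed edgeR after the correction for gene length, at -1.51 (adjusted p = 0.0486). Without #2, where 37.1% of all genes were called, edgeR called both, at adjusted p-values of 0.00143 and 0.00141. Over the alternatives these ran from 0.00143 to 0.23 and from 0.00141 to 0.252. After the correction for gene length *Fbxo15* itself was at -0.90 (adjusted p = 0.336).

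*Lin28a*, with a coefficient of variation of 41.2% over the subclones, varied more than any member but *Dazl* (80.6%). Its gene is ENSRNOG00000060320 (chromosome 5, 152230343 to 152247332, minus strand). It had 966 (#1), 2210 (#2), 1326 (#3) and, in the control, 2215 counts, or 57.6, 125, 73.8 and 149 CPM. Subclone #2 stood at 2.17 times #1 and 1.69 times #3, and the control only at 1.19 times #2. Over all subclones the log2 fold change was -0.80 with a standard error of 0.41 (edgeR adjusted p = 0.216). After the correction for gene length it was -1.14 (adjusted p = 0.0982). Without #2 it was -1.18 with an adjusted p of 0.00182, but 37.1% of all genes were then called, and the adjusted p ran from 0.00182 to 0.419 over the alternatives.

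LIN28A binds the precursors of the let-7 microRNAs and keeps them from maturing, and mature let-7 silences targets through its seed, bases 2 to 8. The 8 mature let-7 of RefSeq all carry the seed GAGGUAG, and 2 are shown with it in capitals.
rno-let-7i-5p: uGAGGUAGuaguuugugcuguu
rno-let-7b-5p: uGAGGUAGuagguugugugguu
Poly(A) libraries do not measure mature microRNAs. Of 9 let-7 gene rows, 6 had any count, and the highest was *Mirlet7i* with 0 counts in every subclone and 11 in the control. *Mirlet7b* had 0 counts in the subclones against 8. The other way, *Mirlet7c2* and *Mirlet7a1* each had 2 counts in #2 and 0 in the other libraries. *Mirlet7d* had 1, 0 and 0 counts against 2, and *Mirlet7f1* had 0 in the subclones against 1. Of the 11 genes of the Lin28 list that were tested, edgeR called *Igf2bp1*, *Igf2bp3* and *Trim71* higher and 0 lower, beside 8.62% and 5.17% of all genes, and their median log2 fold change was 0.35. The let-7 targets of the list did not go 1 way. *Igf2bp3* was at 45.4, 39.4 and 40.0 CPM against 4.51, a log2 fold change of 3.20 (edgeR adjusted p = 0.00705). *Igf2bp1* was at 254, 213 and 247 CPM against 56.0 and rose by 2.09 on the log2 scale (edgeR adjusted p = 0.00889). *Trim71* was at 64.3, 40.6 and 55.9 CPM against 9.82 and rose by 2.45 (edgeR adjusted p = 0.0154). *Igf2bp2* was at 51.5, 77.3 and 69.9 CPM against 103, with a log2 fold change of -0.64 (edgeR adjusted p = 0.176), *Hmga2* had 1, 2 and 2 counts against 5 and was not tested, and *Dicer1* was at 20.5, 25.4 and 25.5 CPM against 44.1, with a log2 fold change of -0.89 (edgeR adjusted p = 0.0790). *Lin28b* had 12, 24 and 27 counts against 8 and did not pass, with a log2 fold change of 1.14 (edgeR adjusted p = 0.385).

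*Dazl* fell furthest but has few counts. Its gene is ENSRNOG00000023474 (chromosome 9, 12633990 to 12650938, plus strand). It had 1 count in #1, 8 in #2, 4 in #3 and 47 in the control. Every subclone lay below the control, but *Dazl* passed the filter only through the control library, so it had to differ. Summed over the subclones it had 13 counts, a rate of 0.0784 of that in the control (exact 95% interval 0.0389 to 0.147). The log2 fold change was -3.64 with a standard error of 0.90 (edgeR adjusted p = 0.0433), and -3.95 after the correction for gene length (adjusted p = 0.0346). The adjusted p ran from 0.00275 to 0.127, and with at least 10 counts required in every library *Dazl* was not in the fit.

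*Ddx4*, the VASA helicase of the germline, was also lower but was not called. Its gene is ENSRNOG00000026686 (chromosome 2, 44447573 to 44504354, minus strand). It had 184 (#1), 274 (#2) and 208 (#3) counts against 289, or 3.60, 5.05 and 3.72 FPKM against 6.33. The control was the highest library, and the log2 fold change was -0.62 with a standard error of 0.35 (edgeR adjusted p = 0.25), and -0.92 after the correction for gene length (adjusted p = 0.111).

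All 31 other germline names had a row and 22 were tested, of which edgeR called 1 higher and 2 lower. This is 13.6% of the list, near the 13.8% of all genes, with a median log2 fold change of -0.03. *Kit*, the receptor of primordial germ cells, was at 104, 103 and 103 CPM against 32.2 and had a log2 fold change of 1.68 (edgeR adjusted p = 0.0144). *Stk31*, a germ cell kinase gene, was at 1.79, 0.849 and 2.17 CPM against 8.61, a log2 fold change of -2.42 (edgeR adjusted p = 0.0360). *Pum2*, which encodes an RNA-binding partner of DAZL, was at 11.9, 20.9 and 20.9 CPM against 50.5, a log2 fold change of -1.49 (edgeR adjusted p = 0.0437). Every subclone exceeded the control for 5 of the 22 genes and fell short of it for 10, and 7 were mixed. *Prdm14* and *Tfap2c*, regulators of germ cell specification, are among the 5, with log2 fold changes of 0.90 and 1.10, but did not pass. *Tex19.1* (-1.06) and *Mael* (-0.70) are among the 10 and did not pass either.

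**Figure D2:**
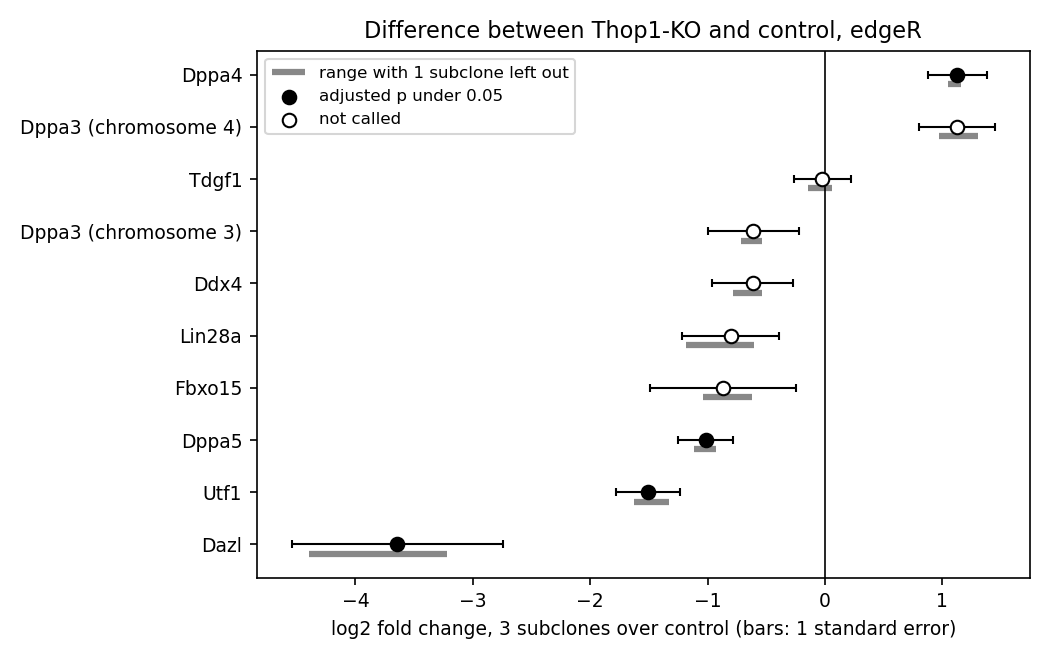
The log2 fold change of each member row, 3 subclones over the control, with bars of 1 standard error and grey lines for the range when 1 subclone is left out. Filled points passed an edgeR adjusted p of 0.05, namely *Dppa4* at 1.13, *Dppa5* at -1.02, *Utf1* at -1.51 and *Dazl* at -3.64.

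The order of the members by FPKM differed between the control and the subclones at the top only. In the control it ran from *Utf1* (1500) to *Dppa5*, *Tdgf1* and *Dppa3*, followed by *Dppa4*, *Lin28a*, the chromosome 3 *Dppa3*, *Ddx4*, *Fbxo15* and *Dazl* (1.08). In every subclone *Dppa3* came to the top, *Utf1*, *Dppa5* and *Tdgf1* followed in an order that differed between them, and the lower 6 places were as in the control. The ratio of *Dppa3* to *Utf1* was 2.18, 3.09 and 1.36 in #1, #2 and #3 and 0.337 in the control. The ratio of *Dppa4* to *Dppa5* was 0.334, 0.261 and 0.331 against 0.0692. In both ratios the control lay below every subclone. This was fixed by the choice of pairs, because the upper member rose in every subclone and the lower member fell. Over the subclones the means of *Tdgf1* (587), *Utf1* (527) and *Dppa5* (521 FPKM) lay within 1 SD of each other, and no order among them can be read. All members together took 0.193%, 0.189% and 0.168% of the counts of the subclones and 0.264% of the control.

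Other genes tied to reprogramming were read from a list of 17 that had *Dppa2* to *Dppa5*, *Utf1* and *Fbxo15* removed. Of the 14 tested, edgeR called 2 higher and 0 lower (14.3%, beside 13.8% of all genes), with a median log2 fold change of 0.26. *Khdc3* was called lower by DESeq2 (adjusted p = 0.0291), which called 21.5% of the genes it tested. Its adjusted p ran from 0.012 to 0.161 over the alternatives. *Sall4*, a zinc finger gene, was at 185, 117 and 166 CPM against 23.6, a log2 fold change of 2.72 (edgeR adjusted p = 0.0102). *Ctnnb1*, which encodes β-catenin, was at 391, 487 and 434 CPM against 113, a log2 fold change of 1.96 (edgeR adjusted p = 0.00970). Of 15 two-cell-like names only 5 had a row, and *Zscan4f* and *Zfp352* among these had no count in any library. Only *Eif1a* and *Sp110* passed the filter, and edgeR called 0 of these 2 (1 at an unadjusted p-value under 0.05, beside 34% of all genes).

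**Figure D3:**
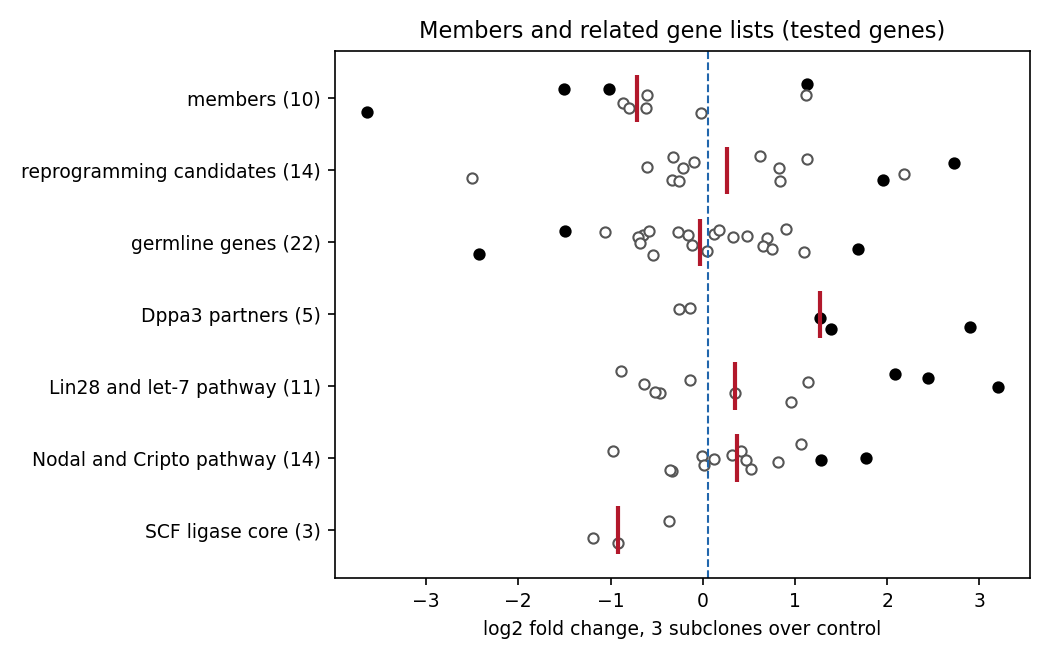
The log2 fold change of each tested gene of the members and of 6 related lists, with filled points for genes called by edgeR, red lines for each list's median and a dashed line at the median of all genes tested (0.06). The median of the members was -0.71, and those of the Dppa3 partners and of the SCF core were 1.28 and -0.92.

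Genes next to the members were compared in turn. Of the 20 tested genes nearest on either side, at gaps of 511 to 1967415 bases, 6 (30%) were called, beside 13.8% of all genes. *Ooep* is among the 6 and lost its call after the correction for gene length, as given above. The share is a description only. *Kndc1*, 3543 bases before *Utf1* on the same strand, had 52, 79 and 56 counts against 5 and rose by 3.38 on the log2 scale (edgeR adjusted p = 0.0285), while *Utf1* fell. With 5 counts in the control, *Kndc1* passed the filter only through the subclones, where it is high, so it had to differ. AC132539.2, 511 bases from *Tdgf1* on the opposite strand, was at 180, 146 and 143 CPM against 822, a log2 fold change of -2.39 (edgeR adjusted p = 0.00678), while *Tdgf1* itself did not pass the test. *Lrrc2*, on the other side of *Tdgf1*, had a log2 fold change of -1.59 (edgeR adjusted p = 0.0383). *Ino80*, beside the chromosome 3 *Dppa3*, and *Il6st*, beside *Ddx4*, rose by 2.06 and 2.33, and *Ino80* lost its call after the correction for gene length (adjusted p = 0.0558). *Gdf3* and *Nanog*, which flank *Dppa3* on chromosome 4, had log2 fold changes of -0.34 and -0.21 and were not called. An unnamed transcript 16956 bases from *Dppa4* on its strand had 273, 261 and 254 counts against 478 (edgeR adjusted p = 0.0514), opposite in sign to *Dppa4*.

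**Figure D4:**
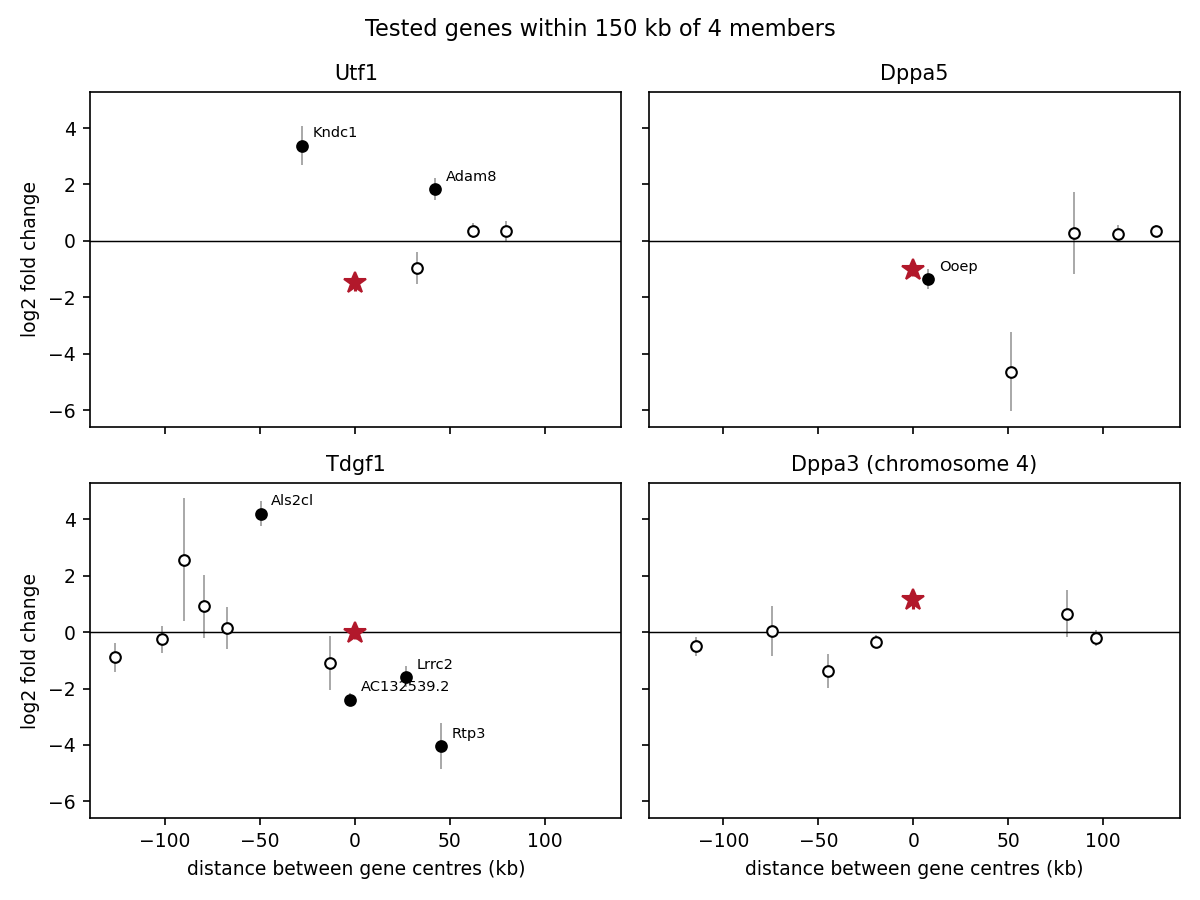
The log2 fold change, with bars of 1 standard error, of each tested gene within 150 kb of 4 members (red stars), against the distance between gene centres in kb, with called genes filled. *Kndc1* (3.38) and *Utf1* (-1.51), and AC132539.2 (-2.39) and *Tdgf1*, lie side by side with different values. *Kndc1* passed the filter on low counts only through the subclones.

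For each called member, the gene with the most similar levels across the 4 libraries was taken from 13462 named genes, by the largest absolute difference in log2(CPM + 0.5) in any library. For *Dppa4* it was *Dab2ip* (139, 122 and 127 CPM against 69.9, a distance of 0.14), and for *Dppa5* it was *Rps27l* (205, 204 and 147 against 407, a distance of 0.15). For *Utf1* it was *Ptms* (666, 454 and 557 CPM against 1433, a distance of 0.17), and for *Dazl* it was *Bpifa2*, at a distance of 0.17.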

How the data were processed

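Poly(A) RNA-seq libraries of 1 DA-5-3GFP control and of 3 *Thop1*-KO subclones were analysed. The authors cleaned reads with the FASTX toolkit and deposited raw counts per gene. They also deposited FPKM values, in which each count is scaled by the gene's length and a single factor per library. The submitters' processing notes name HISAT2 2.0.5 and featureCounts 1.5.0-p3. The genome build and the strand setting are not given in the sources used here, so coordinates are those of the deposited table, and promoter and microRNA sequences are from RefSeq (GRCr8). The table held 0 columns of other samples.

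Counts were tested with edgeR 4.0.16 in R 4.3.3 (filterByExpr with a minimum count of 10, TMM, quasi-likelihood test, genotype as the only term), with Benjamini-Hochberg adjustment over all genes tested and a threshold of 0.05. Standard errors are the log2 fold change divided by the square root of the F statistic. DESeq2 1.42.0, limma 3.58.1 on log2 FPKM with a pseudocount of 1 or 0.1, other scalings and filters, and leaving out each subclone were alternatives. The study also used DESeq2, in a version that the paper does not state. Summing both *Dppa3* rows and removing each library's loess trend on gene length (span 0.3) were added after the data were seen. Intervals are at 95% and cover counting error only.

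All members, genes of the lists with the called ones named before others, the nearest tested gene on each side of a member, and the most similar gene of each called member may be named. The members and lists were chosen with earlier results of these data known. Python 3.11.15, pandas 2.3.3, numpy 2.4.6, scipy 1.17.1 and matplotlib 3.10.9 were used for tables and figures.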

Additional observations from a re-analysis of the deposited data

How the results depend on the processing

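No paired analysis was possible because the control had 1 library. For the members' fold changes and the counts of calls, 152 comparisons with an alternative kept direction and side of the threshold (counts within 1.5 times), 10 lost a call, 6 gained one, 8 counts moved further and 4 changed sign. With limma on log2(FPKM + 1) and no filter, 872 genes, 1 member (*Dazl*) and 8 list genes were called in place of 2072, 4 and 16, and *Dppa4* (1.11), *Dppa5* (-1.03) and *Utf1* (-1.54) lost their calls. With a pseudocount of 0.1, *Dazl* (-2.75) lost its call. *Dppa3* of chromosome 4 gained one by library size only (1.19), by DESeq2 (1.12), without a filter on low counts (1.15) and after the gene length correction (1.56), under which *Dppa5* lost its call (-0.56). *Tdgf1* changed sign by library size only (0.0455), without a filter (0.0028) and after the length correction (0.41). With each subclone left out, the called genes ran from 418 to 5572, the members from 0 to 6 and the list genes from 8 to 34. The log2 fold changes then ran from 0.98 to 1.30 for *Dppa3*, 1.05 to 1.16 for *Dppa4*, -1.12 to -0.93 for *Dppa5*, -1.62 to -1.33 for *Utf1*, -0.1414 to 0.0589 for *Tdgf1*, -1.18 to -0.60 for *Lin28a* and -4.40 to -3.22 for *Dazl*. Among other genes, none of them called, the sign turned for *Nodal* (0.0533 by library size only, 0.0190 without a filter, 0.16 without #2), *Gsta4* (0.0196 by library size only, 0.10 after the length correction, and -0.55 to 0.13 with each subclone left out, 0.0920 without #3), *Crybg2* (-0.10 after the length correction, and -0.22 without #2 to 0.54 without #3) and *Slc38a9* (-0.18 after the length correction). The cause of these changes was not tested. Counts limit *Dazl* and *Fbxo15*, each at 47 counts or fewer in every library.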

Other observations

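The following genes were chosen after their values were seen. *Eras*, a Ras gene of ESCs, had 54 (#1), 23 (#2) and 1234 (#3) counts against 80, so subclone #3 stood apart while #1 and #2 lay below the control (log2 fold change 2.18, edgeR adjusted p = 0.486). Within 150 kb of the members, *Als2cl* (4.20) and *Rtp3* (-4.04) near *Tdgf1*, *Adam8* (1.83) near *Utf1*, *Oip5* (1.54) near the chromosome 3 *Dppa3* and *Sh3bgrl3* (-1.50) near *Lin28a* were also called by edgeR, with log2 fold changes in parentheses. *Nes*, an early neural marker, was the only one of the 4 tested early lineage markers that was called, with a log2 fold change of -4.31 (edgeR adjusted p = 0.0147). edgeR called 0 of the 5 tested primitive endoderm markers (3 at an unadjusted p-value under 0.05, beside 34% of all genes). These 3 differed in sign. *Gata4* had 3, 0 and 3 counts against 17 (log2 fold change -3.24) and passed the filter only through the control. *Dab2* had 8, 22 and 9 counts against 0 (6.655) and passed it only through #2, so both had to differ. *Sox17* had 34, 37 and 47 counts against 10 (1.73). The 7 markers with a row summed to 5.01 to 7.39 CPM in the subclones and 2.89 in the control.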
